A study of Rattus norvegicus with 28 samples.

Results

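The cell cycle and replication genes described here were Mcm6, Pcna, Tyms, Top2a, Ccnd1, Ccnb1, Cdk1, Bub1b and Stmn1, 9 of the 4736 genes with a symbol on the array. They were taken as every probe set whose platform annotation gave exactly 1 of these symbols, which found 20 of the 8740 probe sets that are not controls and at least 1 for each gene. Transcripts were measured with an Affymetrix rat array in terminal ileum taken from rat pups, with 1 array per pup, as a model of necrotizing enterocolitis, which inflames the bowel of newborns. The groups were pups fed formula and given hypoxic stress 3 times a day until they were sampled on day 1, 2, 3 or 4 of life (3 pups on each day), breast-fed pups of the same ages (3 pups on each day), and newborns that had not been fed (4 pups, called unfed). All 28 pups were newborns, and the labels give no strain, sex or litter, so p-values measure the spread between these pups. Formula and hypoxia were always given together and cannot be told apart, and the labels do not say which pups had bowel damage.

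A dividing cell copies its chromosomes once in S phase and separates the copies in mitosis. The MCM helicase, of which Mcm6 is a subunit, is loaded on replication origins and unwinds DNA, Pcna is the sliding clamp of the DNA polymerases, and Tyms, thymidylate synthase, makes the thymidine nucleotide that DNA needs. Top2a untangles DNA, Ccnd1 (cyclin D1) carries growth signals into G1, Ccnb1 (cyclin B1) and its kinase Cdk1 drive entry into mitosis, Bub1b (BubR1) is a kinase of the spindle checkpoint, and Stmn1 (stathmin) destabilises microtubules. In the small intestine most division takes place in crypts, and in newborn rats in the regions between villi from which crypts form. Many of these genes are transcribed in proliferating cells under E2F factors or, for the mitotic ones, under factors that act through CCAAT boxes and cell cycle homology regions of their promoters.

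To show where such motifs lie, the 250 bases before the transcript start were read from the RefSeq promoters of rat build GRCr8, in which 8 of the 9 genes were found, and Ccnd1 was not among them. Both strands were searched. An E2F site, spelled TTTCCCGC, TTTGGCGC, TTTCGCGC or TTTGCCGC, lay in 4 of the 8 promoters (Mcm6, Tyms, Cdk1 and Stmn1), against 1.7% of 33469 rat promoters of the same length. The CCAAT box, spelled CCAAT, lay in 6 (Mcm6, Pcna, Top2a, Ccnb1, Cdk1 and Stmn1), against 34.0%, and the cell cycle homology region, spelled TTTGAA, in Top2a and Cdk1, against 16.2%. No match to the letters of the 3 motifs lay in this window of Bub1b. The 4 promoters with an E2F site are shown because this motif has the lowest share of the 3 among all promoters. They lie at chr13:42404353-42404602, minus strand, for Mcm6, chr9:120776084-120776333, minus strand, for Tyms, chr20:19265043-19265292, plus strand, for Cdk1, and chr5:151964929-151965178, plus strand, for Stmn1. Each is written from the base farthest upstream to the base before the start, with every match to the 3 motifs in capitals. In Mcm6 the 2 E2F matches overlap on opposite strands. A match is a description of the letters and was not tested as a binding site.
Mcm6: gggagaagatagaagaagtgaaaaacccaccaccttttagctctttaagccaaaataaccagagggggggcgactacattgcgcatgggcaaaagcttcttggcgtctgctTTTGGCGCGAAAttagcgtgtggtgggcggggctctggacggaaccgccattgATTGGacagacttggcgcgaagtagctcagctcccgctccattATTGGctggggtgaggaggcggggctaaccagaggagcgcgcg
Tyms: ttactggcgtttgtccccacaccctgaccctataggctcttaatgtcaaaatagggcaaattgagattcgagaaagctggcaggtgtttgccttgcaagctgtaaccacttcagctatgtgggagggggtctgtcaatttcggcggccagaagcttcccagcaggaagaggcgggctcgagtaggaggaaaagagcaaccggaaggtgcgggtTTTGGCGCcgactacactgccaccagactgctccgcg
Cdk1: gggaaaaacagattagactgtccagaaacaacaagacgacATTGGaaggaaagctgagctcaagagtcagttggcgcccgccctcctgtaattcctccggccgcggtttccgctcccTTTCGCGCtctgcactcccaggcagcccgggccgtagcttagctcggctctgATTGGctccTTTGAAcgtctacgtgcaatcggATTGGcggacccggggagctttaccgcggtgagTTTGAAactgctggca
Stmn1: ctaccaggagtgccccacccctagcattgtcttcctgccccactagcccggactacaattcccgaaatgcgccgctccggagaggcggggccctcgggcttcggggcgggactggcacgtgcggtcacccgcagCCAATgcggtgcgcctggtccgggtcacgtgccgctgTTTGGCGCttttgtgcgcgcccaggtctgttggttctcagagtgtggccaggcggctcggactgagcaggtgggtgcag

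Before the values, 2 breast-fed arrays must be set apart from the other 26. Breast-fed day 3 replicate 3 and breast-fed day 4 replicate 2 had lost 71 and 49 abundant probe sets (those whose median elsewhere exceeded 500 and whose own signal was over 16-fold lower), while the other 26 arrays had lost 0 to 2. Their median correlations with the other arrays were 0.884 and 0.894, against 0.916 to 0.951. Both belong to a second accession run of 9 arrays, which also held 1 formula and hypoxia pup (day 4 replicate 3), replicates 1 and 3 of breast-fed day 4, replicate 2 of breast-fed day 1 and 3 unfed pups (replicates 2, 3 and 4), beside a first run of 19 arrays. The labels do not say what separates the runs. Run 1 alone allows the comparison of regimens on days 1 to 3, and run 2 alone on day 4 with 1 formula and hypoxia array. Median deposited signals of the 28 arrays ran from 25.8 to 54.0. Results are given with all arrays and without these 2. The tissue label was met by its markers: Fabp6, the ileal bile acid binding protein, had a mean signal of 1146 ± 273 under formula and hypoxia and 873 ± 307 in breast-fed pups (SD, n = 12 arrays each).

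The main question was whether transcripts of these genes differed between pups given formula and hypoxia and breast-fed pups of the same age. Averaged over days 1 to 4, Mcm6, Stmn1 and Bub1b were lower under formula and hypoxia, and no member was higher. Of 3185 genes tested, 6.75% were called lower in this comparison and 4.68% higher, where a call is an adjusted p under 0.05 in limma (1 mean per group over all 28 arrays, Benjamini-Hochberg adjustment over the 3185 genes). The log2 change was negative in 8 of the 9 members, against 47.2% of all genes, and its median was -0.50, against 0.02 for all genes. The members were chosen with earlier results of these data known, so setting them beside all genes is a description. Changes are on the log2 scale of quantile-normalised signal plus 8. The other 6 members did not pass, although 6 of the 9 had an unadjusted p under 0.05. Without the 2 arrays that stand apart, 7 members were lower and 0 higher, against 5.46% of all genes called lower: Mcm6, Pcna, Top2a, Ccnb1, Cdk1, Bub1b and Stmn1. With limma array weights 6 were lower, against 10.1% of all genes. Within accession run 1 alone, which leaves days 1 to 3, 6 were lower against 2.92%, and within run 2 alone, which holds 1 formula and hypoxia array, 0 were lower against 0%. In bulk tissue, fewer dividing cells and less of a transcript per cell cannot be told apart.

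**Figure D1:**
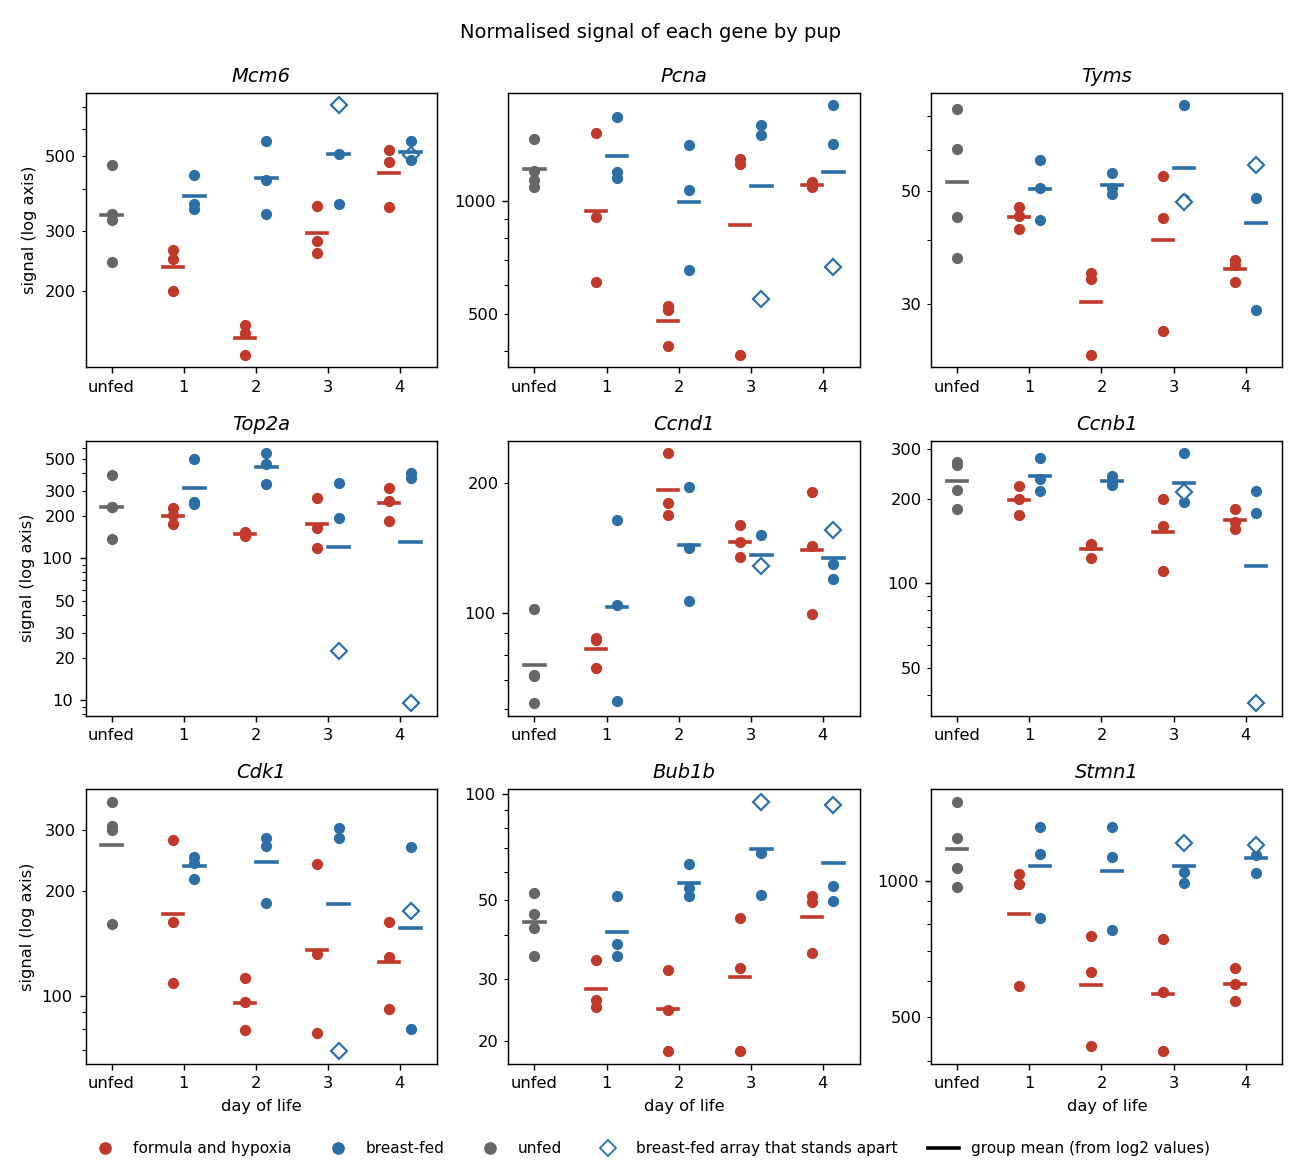
Signal of each of the 9 genes in each pup (quantile-normalised intensity, log axis) against day of life, with formula and hypoxia, breast-fed and unfed pups as points, the 2 breast-fed arrays that stand apart as open diamonds and bars at the group means of the log2 values. On day 2 the 3 formula and hypoxia pups lie below all 3 breast-fed pups in 8 of the 9 panels, Ccnd1 being the exception, and in Top2a the open diamonds lie at 22.1 and 9.56.

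Mcm6, read by its brightest probe set, was lower in the mean over days and on day 2. Its signal under formula and hypoxia was 264, 199.7 and 248 (day 1), 129, 158 and 149.9 (day 2), 258, 280.0 and 356 (day 3) and 521, 352 and 482 (day 4). In breast-fed pups it was 441, 360.3 and 348 (day 1), 338, 553 and 425 (day 2), 509, 361 and 708 (day 3) and 554, 503 and 487 (day 4). Every formula and hypoxia pup lay below every breast-fed pup on days 1, 2 and 3, and on day 4 the groups overlapped. Over the days Mcm6 averaged 283 ± 125 under formula and hypoxia and 466 ± 109.7 in breast-fed pups (SD, n = 12 each), and was 1.73-fold lower (95% confidence interval 1.43 to 2.08), with limma's adjusted p = 0.000256. On day 2 it was 2.86-fold lower (1.97 to 4.16), at adjusted p = 0.00278, the only member called on that day. The mean change kept its call without the 2 arrays that stand apart, at -0.73 (adjusted p = 0.000818), and with the run in the model, at -0.67 (adjusted p = 0.00474). By run, Mcm6 had -0.91 (adjusted p = 0.00200) in run 1 and -0.10 (adjusted p = 0.999) in run 2. The mean change of -0.79 was the largest of the 9 with the settings used for the members, but not in every alternative. When the 2 arrays that stand apart were left out, those of Top2a (-0.83) and Cdk1 (-0.75) were larger than that of Mcm6 (-0.73), as were that of Cdk1 with array weights (-0.83, against -0.68) and that of Top2a within run 1 (-0.94, against -0.91). With the run as a term Cdk1 (-0.80) and Stmn1 (-0.78) were larger.

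Pcna, the polymerase clamp, did not pass in the mean over days with all arrays. On day 2 its signal was 412, 513 and 526 under formula and hypoxia and 1410.2, 1072 and 656 in breast-fed pups, without overlap. Group means under formula and hypoxia were 1015 ± 467 (day 1), 484 ± 62.5 (day 2), 984 ± 515 (day 3) and 1105 ± 19.9 (day 4) (SD, n = 3). Breast-fed means were 1344 ± 292 (day 1), 1046 ± 378 (day 2), 1217 ± 581 (day 3) and 1299 ± 579 (day 4). The spread was wide on days 1 and 3, where single formula and hypoxia pups reached 1526 and 1301 and one on day 3 had 390.1. The 2 breast-fed arrays that stand apart held 549 and 667, and with 656 in breast-fed day 2 replicate 3 these were the lowest breast-fed values. The mean change was -0.50 (-0.95 to -0.04; adjusted p = 0.148), and -0.72 (adjusted p = 0.0159) without those 2 arrays. The arrays of run 1 gave -0.81 (adjusted p = 0.0680) for Pcna and those of run 2 -0.11 (adjusted p = 0.999).

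Tyms, the thymidylate synthase gene, did not pass in the mean over days. All 12 formula and hypoxia pups were below the breast-fed mean of their day. On day 2 its signal was 33.5, 23.9 and 34.5 under formula and hypoxia and 54.1, 49.2 and 50.6 in breast-fed pups. Group means were 44.4 ± 2.18 (day 1), 30.6 ± 5.90 (day 2), 41.4 ± 13.7 (day 3) and 35.1 ± 1.77 (day 4) under formula and hypoxia (SD, n = 3). In breast-fed pups they were 50.6 ± 6.83 (day 1), 51.3 ± 2.52 (day 2), 56.4 ± 14.8 (day 3) and 44.6 ± 13.8 (day 4). The groups did not overlap on day 2 and overlapped on the other days. The mean change was -0.36 (-0.62 to -0.10; adjusted p = 0.0669), and without the 2 arrays that stand apart -0.34 (adjusted p = 0.119). The call turned on single pups: without breast-fed day 4 replicate 1, which held 29.3, the adjusted p was 0.0299, and without formula and hypoxia day 3 replicate 2, which held 53.5, it was 0.0399. Within accession run 1 the change of Tyms was -0.39 (adjusted p = 0.150), and within run 2 it was -0.33 (adjusted p = 0.999).

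Top2a, the topoisomerase that untangles sister chromatids, was the member on which the 2 arrays that stand apart weighed most. Its signal under formula and hypoxia was 174, 203 and 226 (day 1), 154, 143 and 147 (day 2), 267, 118 and 165 (day 3) and 254, 182 and 314 (day 4). In breast-fed pups it was 500.2, 241 and 251 (day 1), 335, 549 and 464 (day 2), 339, 192 and 22.1 (day 3) and 399, 9.56 and 369.5 (day 4). The 22.1 and 9.56 are the 2 arrays that stand apart. On days 1 and 2 every formula and hypoxia pup lay below every breast-fed pup. With all arrays the mean change was -0.20, with a wide interval of -1.03 to 0.63 (adjusted p = 0.800), and the differences on days 3 and 4 were 0.50 and 0.86. Without those arrays Top2a was lower, at -0.83 (adjusted p = 0.00462), and the differences on days 3 and 4 were -0.54 and -0.63, neither called. On day 2 it was then called at -1.52 (adjusted p = 0.0192). By run, Top2a had -0.94 (adjusted p = 0.00900) in run 1 and 1.25 (adjusted p = 0.999) in run 2.

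Ccnd1, cyclin D1, was the 1 member with a positive mean change, by the brightest of its 5 probe sets, and no call. The other 3 probe sets that passed the filter gave -0.19, -0.45 and -0.84, the last called lower with 1 test per probe set (adjusted p = 0.00860). The signal of the brightest under formula and hypoxia was 87.6, 74.7 and 86.6 (day 1), 179.7, 169 and 234 (day 2), 160.1, 146 and 135 (day 3) and 191, 143 and 99.8 (day 4). In breast-fed pups it was 62.8, 164 and 105 (day 1), 196, 107 and 142 (day 2), 152, 129 and 129 (day 3) and 119.9, 156 and 129.8 (day 4). Its formula and hypoxia values were highest on day 2, where the groups overlapped, and only 5 of the 12 lay below the breast-fed mean of their day. On day 2 the brightest changed by 0.40, and the others by -0.42, -0.66, -0.33 and, for the dimmest, -0.41. The mean change of the brightest was 0.07 with an interval of -0.22 to 0.35 (adjusted p = 0.805), and 0.08 (adjusted p = 0.784) without the 2 arrays that stand apart. The sign was not fixed: after scaling to a common array median the change was -0.01, and without breast-fed day 1 replicate 1, which held 62.8, it was also -0.01. The arrays of run 1 gave 0.16 (adjusted p = 0.599) for Ccnd1 and those of run 2 -0.42 (adjusted p = 0.999).

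The mitotic cyclin Ccnb1 and its kinase Cdk1 both lay lower under formula and hypoxia on day 2, without overlap and without a call. On that day the signal of Ccnb1 was 123, 137 and 138 under formula and hypoxia and 231, 241 and 224 in breast-fed pups. Its group means were 198 ± 23.1 (day 1), 132 ± 8.35 (day 2), 157 ± 44.8 (day 3) and 168 ± 14.6 (day 4) under formula and hypoxia (SD, n = 3). In breast-fed pups they were 243 ± 34.5 (day 1), 232 ± 8.78 (day 2), 232 ± 51.2 (day 3) and 143 ± 92.9 (day 4). Breast-fed day 4 replicate 2, one of the arrays that stand apart, held 37.4 beside 177 and 213 in the other pups of that day. The mean change of Ccnb1 was -0.27 (-0.65 to 0.10; adjusted p = 0.353) with all arrays and -0.46 (adjusted p = 0.0141) without both arrays. Leaving out that 1 array gave -0.45 (adjusted p = 0.0128). Within accession run 1 the change of Ccnb1 was -0.55 (adjusted p = 0.0366), and within run 2 it was 0.67 (adjusted p = 0.999).

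For Cdk1 the day 2 signals were 79.9, 96.2 and 112 under formula and hypoxia and 269, 185 and 284 in breast-fed pups. Group means were 185 ± 88.2 (day 1), 96.1 ± 16.1 (day 2), 149.8 ± 81.9 (day 3) and 128 ± 35.4 (day 4) under formula and hypoxia (SD, n = 3). In breast-fed pups they were 236 ± 17.6 (day 1), 246 ± 53.4 (day 2), 219.8 ± 131 (day 3) and 175 ± 93.9 (day 4). The breast-fed pups of days 3 and 4 and the formula and hypoxia pups of days 1 and 3 spread most. Breast-fed day 3 replicate 3, an array that stands apart, held 69.3, and breast-fed day 4 replicate 1 held 80.3. The mean change was -0.61 (-1.10 to -0.13; adjusted p = 0.0966), and -0.75 (adjusted p = 0.0227) without the 2 arrays that stand apart. Leaving out breast-fed day 3 replicate 3 alone gave adjusted p = 0.0151, and leaving out breast-fed day 4 replicate 1 alone gave 0.0403. By run, Cdk1 had -0.90 (adjusted p = 0.0233) in run 1 and -0.27 (adjusted p = 0.999) in run 2.

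Bub1b, the spindle checkpoint kinase, was lower at a low signal. Under formula and hypoxia it was 26.1, 34.0 and 24.97 (day 1), 24.5, 18.8 and 31.8 (day 2), 32.1, 18.8 and 44.4 (day 3) and 51.5, 35.6 and 49.3 (day 4). In breast-fed pups it was 51.6, 37.5 and 34.9 (day 1), 51.5, 54.1 and 63.3 (day 2), 68.0, 51.9 and 94.9 (day 3) and 49.9, 92.6 and 54.9 (day 4). All 12 formula and hypoxia pups were below the mean of the breast-fed pups of their age, and the groups did not overlap on days 1, 2 and 3. Bub1b averaged 32.7 ± 11.02 under formula and hypoxia and 58.8 ± 18.7 in breast-fed pups (SD, n = 12 each), and was 1.64-fold lower (1.36 to 1.99) in the mean over days, at adjusted p = 0.000959. On day 3 it was 2.03-fold lower (1.38 to 2.97), at adjusted p = 0.0441, the only member called on that day by its brightest probe set. That call was lost in 23 of 39 alternatives, among them no filter (adjusted p = 0.0671), deposited intensities (0.216), a common median (0.0511) and the replicate block (0.0584). The 2 arrays that stand apart held the highest breast-fed values of this gene, 94.9 and 92.6. Without them the mean change was -0.60 (adjusted p = 0.00522) and the day 3 change -0.81 (adjusted p = 0.230), which ended the day 3 call. The arrays of run 1 gave -0.75 (adjusted p = 0.0177) for Bub1b and those of run 2 -0.33 (adjusted p = 0.999).

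Stmn1, the microtubule destabiliser, was lower in the mean over days and the 1 member without overlap on day 4. Its signal under formula and hypoxia was 985, 584 and 1036 (day 1), 430.2, 627 and 752 (day 2), 567, 419.5 and 741 (day 3) and 590.2, 543 and 641 (day 4). In breast-fed pups it was 1314, 827 and 1147 (day 1), 1127, 1314 and 776 (day 2), 989.8, 1042 and 1210.2 (day 3) and 1142, 1195 and 1039 (day 4). All 12 formula and hypoxia pups were below the mean of the breast-fed pups of their age, and the groups did not overlap on days 2, 3 and 4. Stmn1 averaged 659.7 ± 192 under formula and hypoxia and 1094 ± 169 in breast-fed pups (SD, n = 12 each), and was 1.69-fold lower (1.39 to 2.06), at adjusted p = 0.000708. On no single day did it pass. Its daily changes were -0.35 (day 1), -0.83 (day 2), -0.93 (day 3) and -0.92 (day 4), and the adjusted p on day 4 was 0.0830. The mean change without the 2 arrays that stand apart was -0.72 (adjusted p = 0.00237). Within accession run 1 the change of Stmn1 was -0.74 (adjusted p = 0.0208), and within run 2 it was -0.79 (adjusted p = 0.999).

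**Figure D2:**
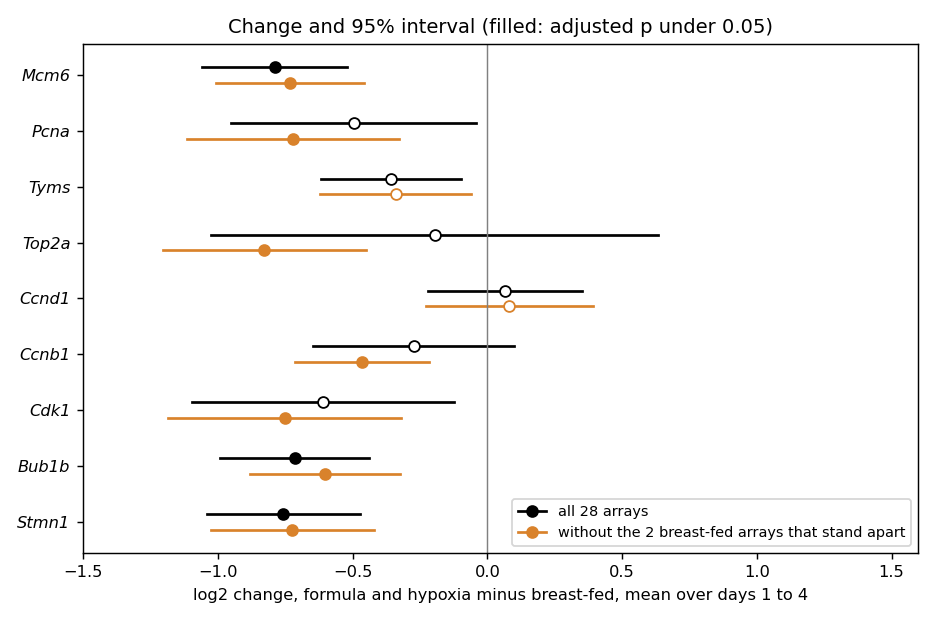
Log2 change of each gene, formula and hypoxia minus breast-fed, as the mean over days 1 to 4 with 95% confidence intervals, with all 28 arrays (black) and without the 2 breast-fed arrays that stand apart (orange); filled points have an adjusted p under 0.05. Mcm6, Bub1b and Stmn1 are filled in both, and the interval of Top2a with all arrays runs from -1.03 to 0.63.

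By day, the separation was widest on day 2. On day 1, 0 of 9 members were called by limma (0.283% of all genes were called, 0.22% lower and 0.0628% higher), with all 9 log2 changes negative, 1 unadjusted p under 0.05 and a median of -0.43. On day 2, Mcm6 was called lower and no member higher (1.48% of all genes were called, 0.785% lower and 0.691% higher), 7 had an unadjusted p under 0.05 and the median was -0.97, against 0.01 for all genes. On day 3, Bub1b was called lower and no member higher, with a median of -0.42 (1.98% of all genes were called, 1% lower and 0.973% higher). For day 4 the count was 0 by limma, with 1 unadjusted p under 0.05 and a median of -0.20 (2.01% of all genes were called, 1.29% lower and 0.722% higher). Every formula and hypoxia pup lay below every breast-fed pup in 3 members on day 1 (6.31% of all genes), in 8 on day 2 (10.5%), in 3 on day 3 (10.4%) and in 1 on day 4 (12.8%). The member with overlap on day 2 was Ccnd1, and the member without it on day 4 was Stmn1. On day 4 all breast-fed arrays were in accession run 2 and most formula and hypoxia arrays in run 1, so regimen and run are largely mixed there. Without the 2 arrays that stand apart, 3 members were lower on day 2 (0.879% of all genes), Mcm6, Top2a and Bub1b, the last at adjusted p = 0.0495, and 0 were called on day 1, 3 or 4 (0.188%, 0.408% and 0.597% of all genes were called lower).

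**Figure D3:**
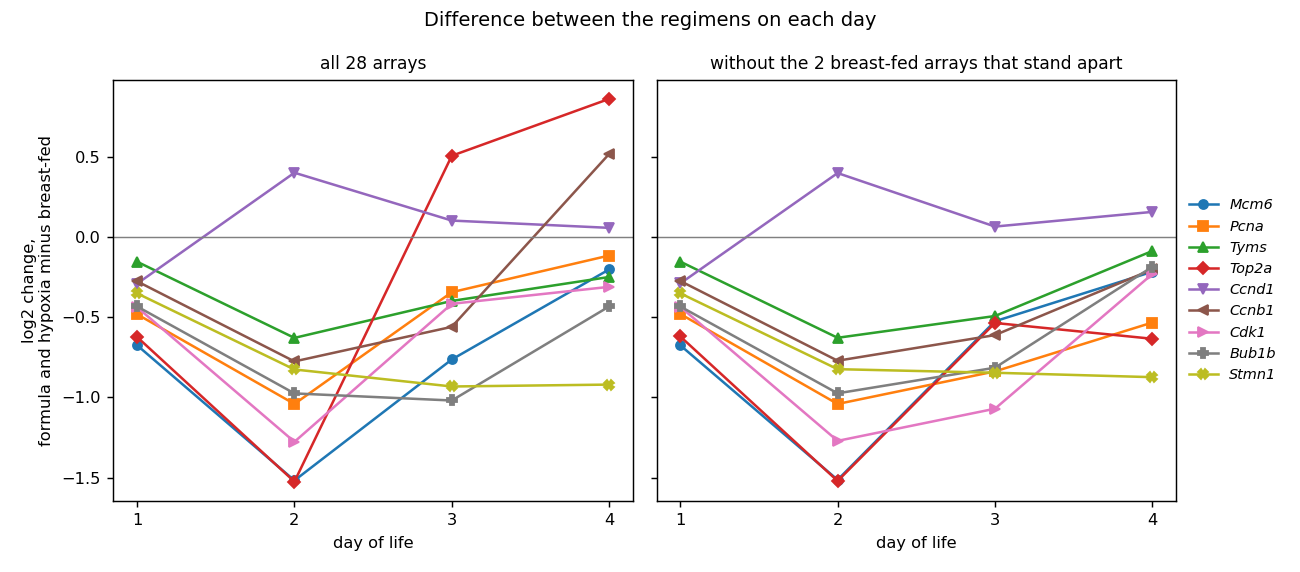
Log2 change of each gene on each day of life, formula and hypoxia minus breast-fed (3 pups a group, but 2 in the breast-fed groups of days 3 and 4 on the right), with all 28 arrays on the left and without the 2 breast-fed arrays that stand apart on the right. Top2a and Mcm6 reach -1.52 and -1.52 on day 2, and the positive values of Top2a and Ccnb1 on day 4 (0.86 and 0.52) turn to -0.63 and -0.20 on the right.

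Within the formula and hypoxia pups, Mcm6 was higher on the last day by its brightest probe set. It was 1.86-fold higher (95% confidence interval 1.28 to 2.71) on day 4 than on day 1, at adjusted p = 0.0248, the only 1 of the 9 members called (13.3% of all genes were called, 6.56% higher and 6.78% lower). Without the 2 breast-fed arrays that stand apart it was again the 1 member called (7.66% of all genes higher). That call was lost without formula and hypoxia day 1 replicate 2 (adjusted p = 0.0899), day 4 replicate 1 (0.125) or day 4 replicate 3 (0.0709), with the run as a covariate (0.0533) within run 1 (0.0570), with deposited intensities (0.0575) and with a common median (0.0851). The other probe sets of Mcm6 did not move alike between these days. Under formula and hypoxia the second brightest averaged 202 on day 1 and 215 on day 4, and so showed little rise. The dimmest averaged 86.2 on day 1 and 148 on day 4. These means of 3 pups are given without a test. Day 4 was also set against day 2, a comparison chosen after the values were seen. Mcm6 was 2.96-fold higher (95% confidence interval 2.04 to 4.31) on day 4 than on day 2, at adjusted p = 0.00142 (11.3% of all genes were called, 5.31% higher and 6.03% lower), and its 3 pups of day 4, at 521, 352 and 482, all lay above the 3 of day 2, at 129, 158 and 149.9. Pcna had 1.19 (adjusted p = 0.0805), Bub1b 0.70 (0.0924) and Stmn1 0.01 (0.992), and these were not called. Pcna was called without the 2 breast-fed arrays that stand apart, at adjusted p = 0.0300 (7.19% of all genes higher). Whether the difference between the regimens itself moved was tested apart: from day 1 to day 4 it changed in 0 of 9 members (0.157% of all genes, 0.0314% upwards and 0.126% downwards; 0 members with an unadjusted p under 0.05), and from day 2 to day 4 in 0 of 9 by limma (0% of all genes, 3 members with an unadjusted p under 0.05), Mcm6 having 1.31 at adjusted p = 0.279. Without the 2 arrays that stand apart both counts stayed at 0 (0.0314% and 0% of all genes were called downwards).

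In breast-fed pups, 0 of 9 members were called between day 4 and day 1 (0.314% of all genes called, all of them higher), with 1 unadjusted p under 0.05, that of Ccnb1 at -1.02 (adjusted p = 0.178; -0.30 and 0.707 without the 2 arrays that stand apart). Mcm6 had 0.42 (interval -0.12 to 0.97) and Stmn1 0.06 (-0.51 to 0.63). All breast-fed day 4 arrays were in accession run 2 and most breast-fed day 1 arrays in run 1, so day and run are largely mixed here. The unfed newborns gave the level before any feeding. Mcm6 had 242, 469.9, 324 and 337 in the 4 unfed pups, Bub1b 34.8, 52.5, 45.8 and 41.9, and Stmn1 1240.1, 1495, 1065 and 969. Day 1 of formula and hypoxia differed from unfed in 0 of 9 members (0.377% of all genes called, 0.157% lower and 0.22% higher; 0 members with an unadjusted p under 0.05), with 8 negative changes. The changes ran from -0.64 for Cdk1 to 0.12 for Ccnd1, and Mcm6 had -0.49 (-0.99 to 0.02). Day 1 of breast feeding differed from unfed in 0 of 9 by limma (0% of all genes, 0 members with an unadjusted p under 0.05), with 4 of the 9 changes negative and a range from -0.20 for Cdk1 to 0.42 for Top2a. Both comparisons share the same 4 unfed arrays. Most unfed arrays were in run 2, while all formula and hypoxia and most breast-fed arrays of day 1 were in run 1.

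Over the 9 groups, by the brightest probe set of each gene, formula and hypoxia day 2 had the lowest mean log2 value in 5 members and the highest in 1, Ccnd1. The lowest group of the others was breast-fed day 3 or day 4, formula and hypoxia day 3 or the unfed newborns, in 1 member each. For Top2a (breast-fed day 3) and Ccnb1 (breast-fed day 4) that order rests on the log2 values of the 2 arrays that stand apart: by mean signal formula and hypoxia day 2 was lower in both, at 148 against 184 for Top2a and 132 against 143 for Ccnb1. When the groups were put in order of their means, the ranges of neighbouring groups overlapped in 8 of 8 pairs for 7 members. The exceptions were Mcm6, in which formula and hypoxia day 2 (highest 158) lay below its neighbour, formula and hypoxia day 1 (lowest 199.7), and Ccnd1, in which formula and hypoxia day 2 (lowest 169) lay above its neighbour, formula and hypoxia day 3 (highest 160.1). Unfed means were 343 ± 94.3 for Mcm6, 1227 ± 167 for Pcna, 53.4 ± 15.8 for Tyms, 247 ± 104 for Top2a, 77.0 ± 17.5 for Ccnd1, 233 ± 41.1 for Ccnb1, 283 ± 85.9 for Cdk1, 43.7 ± 7.39 for Bub1b and 1192 ± 231 for Stmn1 (SD, n = 4). Across the 28 arrays the members varied together to different degrees, which is given as a description because the arrays share the groups. Pearson's r of the log2 values was 0.82 for Mcm6 and Bub1b, 0.74 for Tyms and Cdk1 and 0.67 for Top2a and Ccnb1. For Top2a and Bub1b it was -0.17 over 28 arrays and 0.74 over the 26 without the 2 that stand apart. For Ccnd1, by its brightest probe set, it was negative with each of the other 8 members.

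Several members were read by more than 1 probe set, and these did not always give the same size. Of the 20 probe sets, 17 passed the filter on dim signal and 3, of Bub1b, Ccnd1 and Top2a, did not. In the mean over days 18 had a negative change, and with 1 test per probe set 7 were called lower and 0 higher, against 6.58% of all probe sets called lower. The 3 probe sets of Mcm6 gave -0.79, -0.57 (adjusted p = 0.0246) and -0.27 (0.265), and the 2 of Pcna -0.50 and -0.39. By day, those of Mcm6 gave -0.67, -0.11 and -0.36 on day 1 and -1.52, -1.28 and -1.02 on day 2. They gave -0.76, -0.41 and 0.09 on day 3 and -0.20, -0.49 and 0.21 on day 4. A second probe set of Top2a had 90.8 and 92.8 in the 2 arrays that stand apart, where the brightest had 22.1 and 9.56, and its mean change with all arrays was -0.51 (adjusted p = 0.0336). A second probe set of Ccnb1 had 85.5 in breast-fed day 4 replicate 2, where the brightest had 37.4, and a mean change of -0.68 (adjusted p = 0.000486). On day 3 the change of that probe set was -1.26 (adjusted p = 0.00431). Its signals were 35.9, 36.3 and 62.8 under formula and hypoxia and 125, 89.5 and 139 in breast-fed pups. The 5 probe sets of Ccnd1 disagreed, with 0.07, -0.19, -0.45, -0.84 (adjusted p = 0.00860) and, for the dimmest, 0.05. The probe set of Ccnd1 that was called had signals of 29.8 ± 13.00 under formula and hypoxia and 57.0 ± 18.3 in breast-fed pups (SD, n = 12 each). Which probe set follows the Ccnd1 transcript best was not tested. The dim second probe set of Bub1b gave -0.13.

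**Figure D4:**
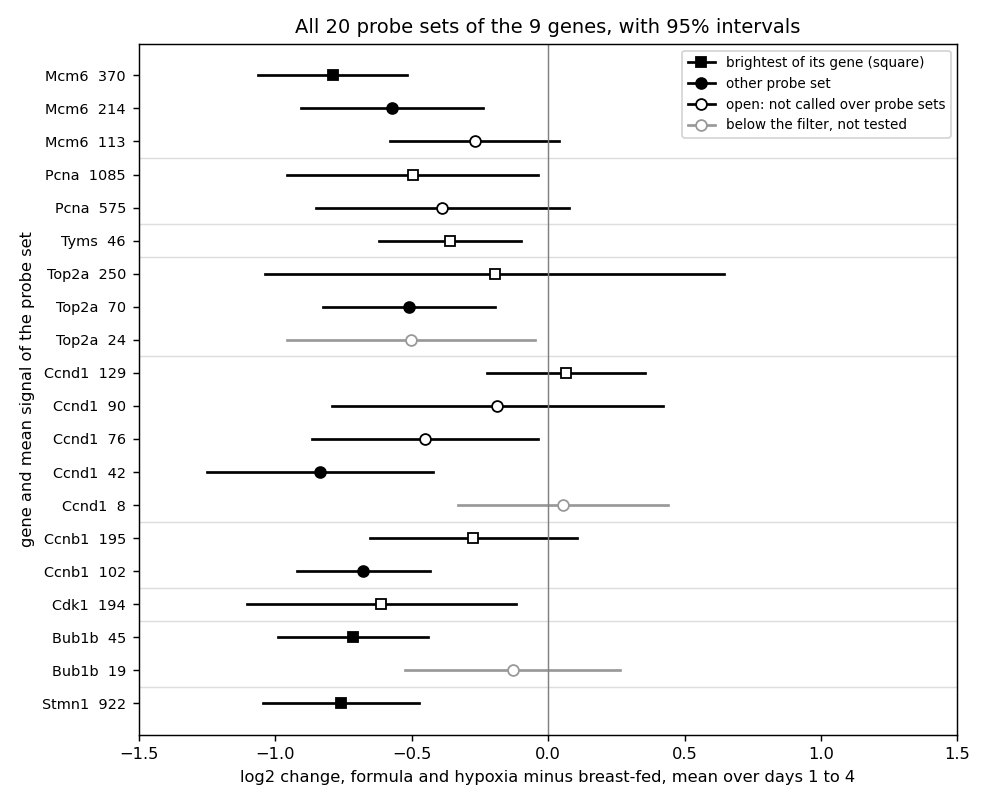
Log2 change, formula and hypoxia minus breast-fed, as the mean over days 1 to 4 with 95% confidence intervals, for all 20 probe sets of the 9 genes, each labelled with its gene and its mean signal over the 28 arrays; the marker shows whether the probe set stood for the gene in the test, passed the filter or lay below it. The probe sets of Ccnd1 run from -0.84 to 0.07, and 18 of the 20 lie left of 0.

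Other genes of the same pathways were taken from 7 lists by role, also chosen with earlier results of these data known. Of 77 genes on the array 62 were tested, and in the mean over days 9 were lower (14.5%, against 6.75% of all genes), 2 higher (3.23%, against 4.68%) and 51 not called, with a median of -0.15, against 0.02. The calls lay in 3 lists. Of 10 mitosis and spindle genes, 5 were lower and 0 higher, all 10 changes were negative and the median was -0.41 (-0.32 with deposited intensities and -0.40 with a common median). Plk4, the kinase that starts centriole duplication, fell by 1.01 on the log2 scale (limma's adjusted p = 0.00122). Its signals averaged 20.5 ± 10.4 under formula and hypoxia and 45.7 ± 10.1 in breast-fed pups (SD, n = 12 each). The formula and hypoxia mean of Plk4 lay below 24.0, the signal at the filter, which was set on the mean over all arrays. Plk4 thus passed through its breast-fed and unfed signals (unfed mean 34.6), and its call rests on a dim signal under formula and hypoxia. Cdc20, an activator of the anaphase-promoting complex, changed by -0.54 (adjusted p = 0.0307), Racgap1, of the spindle midzone, by -0.51 (0.00978), the condensin subunit Smc4 by -0.50 (0.0345) and the mitotic kinase Aurkb by -0.38 (0.0404). Kif2c, a kinesin that depolymerises microtubules, had -0.43 and the tubulin gene Tuba1b -0.27, and neither passed. The count was 3 without the 2 arrays that stand apart (Racgap1, Aurkb and Plk4), 1 with deposited intensities, with the run as a term or within run 1, 0 within run 2, and between 2 and 5 when single arrays were left out. It was 2 without breast-fed day 1 replicate 1 or breast-fed day 2 replicate 2. It was 3 without breast-fed day 1 replicate 3, day 2 replicate 3 or day 3 replicate 3, or without formula and hypoxia day 1 replicate 2 or 3, day 2 replicate 1 or 2, day 3 replicate 2 or day 4 replicate 1.

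Of 9 chromatin proteins of dividing cells, 4 were lower and 0 higher, with a median of -0.27 (-0.30 with deposited intensities and -0.41 with a common median). H2az1, the histone variant H2A.Z, changed by -0.82 (adjusted p = 0.00243), the histone deacetylase Hdac2 by -0.55 (0.00459), and the high mobility group proteins Hmgb2 by -0.55 (0.0171) and Hmgb1 by -0.42 (0.0120). H2az1 averaged 889 ± 337 under formula and hypoxia and 1511 ± 341 in breast-fed pups (SD, n = 12 each). The histone H2ax had -0.27 and the peroxiredoxin Prdx1, in this list although not a chromatin protein, -0.22, neither called. Without the 2 arrays that stand apart 3 were lower (H2az1, Hmgb1 and Hdac2), within run 1 2 and within run 2 0. Of 11 CDK inhibitors and growth arrest genes, 2 were higher and 0 lower, with a median of 0.26 (0.28 with deposited intensities, 0.18 with a common median and 0.15 without the 2 arrays that stand apart). Gadd45a, a growth arrest gene induced by stress, rose by 1.06 on the log2 scale (adjusted p = 0.0212), and Klf4, a transcription factor of epithelial cells that have left the cycle, by 0.65 (0.00342). From day 1 to day 4 the daily changes were 0.89, 1.34, 2.39 and -0.37 for Gadd45a. For Klf4 they were -0.05, 0.51, 0.62 and 1.52. The CDK inhibitor genes Cdkn2b and Cdkn1c had 0.40 and -0.37, neither called. With arrays scaled to a common median, with the run as a term or within run 1, 1 gene of this list was called, within run 2, 0, and with array weights 4.

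In the other 4 lists no gene was called by limma with the settings used for the members. The fork list had 2 lower with array weights, 1 with the run as a term and 1 with the replicate block, and the cyclin list had 1 higher with array weights, with the replicate block or with a pseudocount of 32. Of 2 other licensing genes, the helicase subunits Mcm5 and Mcm7 had -0.22 (adjusted p = 0.231) and 0.01 (0.979), while Mcm6, a subunit of the same complex, was called at -0.79. The difference between the subunits was not tested. Of 11 fork proteins and polymerases the largest changes were those of the clamp loader Rfc1 (-0.57, adjusted p = 0.0554) and the primase complex subunit Pola2 (-0.49, 0.0611). Without the 2 arrays that stand apart Rpa3 and Prim2 of this list were lower. Of 8 nucleotide synthesis genes the largest were Nme1, a nucleoside diphosphate kinase (-0.39), and Dut, the dUTPase (-0.31). Of 11 cyclins, CDKs and G1 control genes the largest were Myc (0.42, adjusted p = 0.0545) and Ccnd3, cyclin D3 (0.38). Cdk4, the partner of the D cyclins, was lower without the 2 arrays. The medians were -0.11 for licensing, -0.19 for the fork, -0.20 for nucleotide synthesis and -0.02 for cyclins and CDKs, the last turning to 0.07 with deposited intensities, 0.08 with the run as a term and 0.05 with array weights. When the 2 arrays that stand apart were left out, the fork median was -0.44 and the licensing median -0.03, and with the run as a term the fork median was -0.46.

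**Figure D5:**
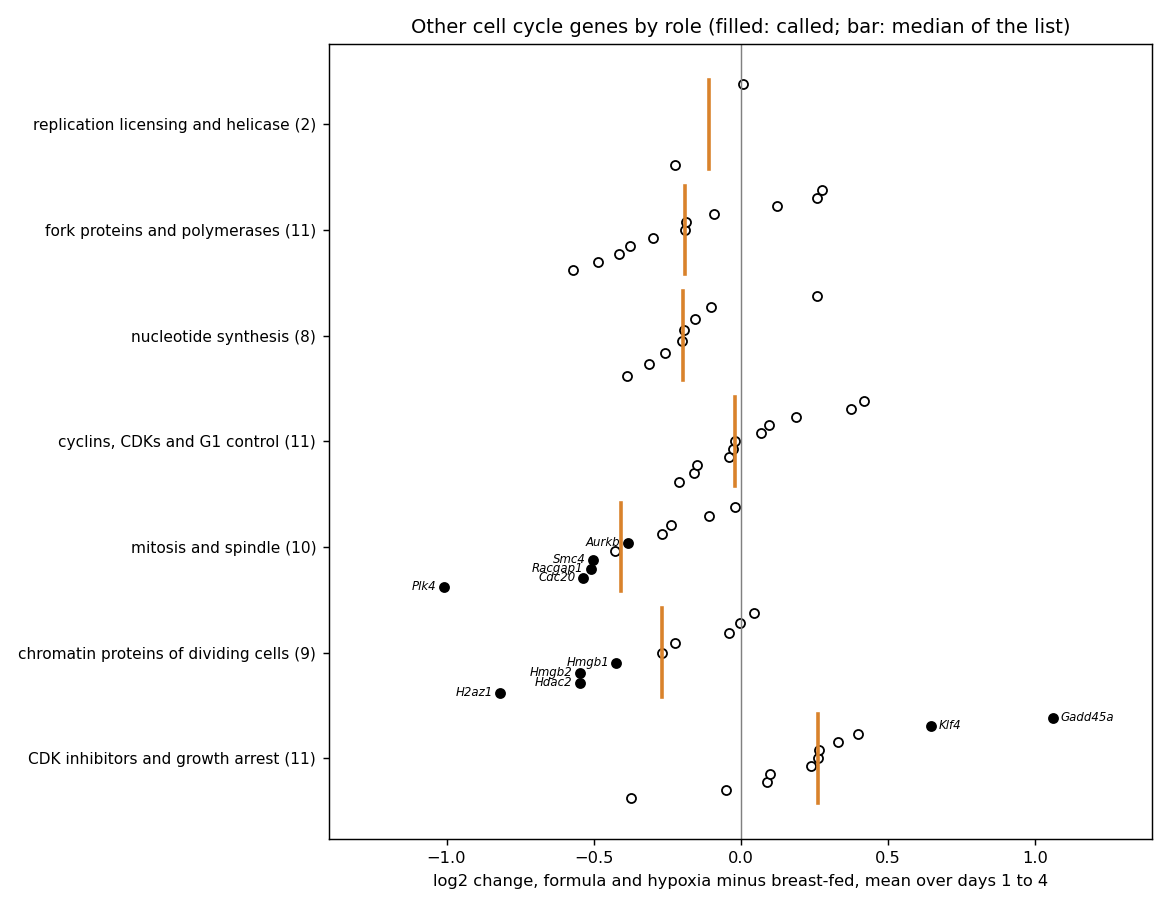
Log2 change, formula and hypoxia minus breast-fed, as the mean over days 1 to 4 (all 28 arrays), for the 62 other genes tested, in 7 lists by role with the number of genes in brackets; filled points are called and named, and the bar is the median of a list. The 10 mitosis and spindle genes all lie left of 0, and the 2 genes called higher, Gadd45a and Klf4, are in the list of CDK inhibitors and growth arrest genes.

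Markers of the cell types that a piece of ileum can hold were read beside these results. Of 9 enterocyte markers 0 were called by limma, among them the fatty acid binding protein gene Fabp1 (-0.50, adjusted p = 0.407), and their summed signal ran from 17819 to 32522 under formula and hypoxia and 17311 to 28631 in breast-fed pups. Without the 2 arrays that stand apart Fabp2, of the same family, was higher. Of 3 ileal enterocyte markers 0 were called, at sums of 1706 to 2570.0 under formula and hypoxia and 1016 to 2935 in breast-fed pups, with Fabp6 at 0.44 (adjusted p = 0.1002). Of 6 smooth muscle markers 0 were called, with calponin, Cnn1, at 0.38 (0.577) and sums of 5031 to 14146 under formula and hypoxia and 6037 to 13115 in breast-fed pups. Of 7 fibroblast markers 3 were lower, the matrix genes Lum (-1.54), Postn (-1.44) and Dcn (-0.86), with sums of 1848 to 5201 under formula and hypoxia and 3518 to 7821 in breast-fed pups. The collagen gene Col1a1 had -0.60 (0.115), and without the 2 arrays that stand apart Lum and Postn were the 2 called. Of 6 lymphocyte markers tested 2 were lower, Coro1a (-1.13), an actin binding protein of leukocytes, and the leukocyte surface gene Cd53 (-0.96), with sums of 262 to 696 under formula and hypoxia and 379 to 742 in breast-fed pups. The formula and hypoxia mean of Cd53, 23.0, lay below the signal at the filter, 24.0, against 49.7 in breast-fed pups. Cd53 thus passed through its breast-fed and unfed signals (unfed mean 31.7), and its call rests on a dim signal under formula and hypoxia. The B cell receptor gene Cd79b had -0.15 (0.737). The lymphocyte markers Ptprc, Cd4 and Cd3g had -0.10, -0.09 and 0.01, none called. The T cell genes Cd3d and Cd8a were below the filter. Of 4 erythroid markers 3 were higher, the globin genes Hbb (0.37) and Hbb-b1 (0.50) and Alas2 (0.69), which starts heme synthesis in red cell precursors, with sums of 12269 to 19478 under formula and hypoxia and 7705 to 15957 in breast-fed pups. The red cell anion exchanger Slc4a1 had 0.23 (0.258), and 1 of the 4 was called with a common median. Of 4 liver markers tested 1 was lower, Afp (-1.55), alpha-fetoprotein, with Apoh at 0.48 (0.378) and sums of 1204 to 2635 under formula and hypoxia and 1402 to 4649 in breast-fed pups, and Alb and Fgb were below the filter. The liver markers Ttr and Serpina1 had 0.20 and 0.27, neither called. Some fibroblast and erythroid markers, the lymphocyte markers Coro1a and Cd53 and the liver marker Afp thus differed between the regimens. The other lymphocyte and liver markers tested were not called. What part the differing markers had in the results for the cell cycle genes was not tested.

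The genes whose signal over the 28 arrays was most like the mean of the 9 standardised members were Serpinb9 (Pearson's r = 0.80), a granzyme B inhibitor, the mast cell chymase Mcpt4 (0.75) and the vascular chymase Vch (0.73). They were followed by Srgn, serglycin of secretory granules (0.71), the eosinophil chemokine Ccl11 (0.71), the B cell chemokine Cxcl13 (0.70), the surface glycoprotein Cd24 (0.70) and the nuclear transport factor Nutf2 (0.67). All 8 were called lower under formula and hypoxia in the mean over days (6.75% of all genes were). They were picked for likeness to members that were mostly lower there, so their direction is no separate result. Without the 2 arrays that stand apart their r ran from 0.68 to 0.85. The arrays share the regimens and days, so r is a description.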

How the data were processed

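The deposited table holds 1 intensity per probe set and array on a linear scale, without headers that describe its making. Not given in the sources used here were the authors' software, background correction and summary method. Of 8799 probe sets 59 controls were left out, and the platform annotation gave 1 symbol for 7006 of the rest.

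The intensities were quantile normalised between the 28 arrays, 8 was added (so a fold understates changes of dim genes), and log2 was taken of the deposited values so treated. Probe sets whose mean log2 lay above the 40th percentile (a signal of 24.0) were kept, 5244 in all, and the brightest stood for each gene, which left 3185 genes. limma 3.58.1 in R 4.3.3 fitted 1 mean per group (19 residual degrees of freedom) with empirical Bayes moderation and an intensity trend. P-values are two-sided, adjusted by Benjamini-Hochberg over all 3185 genes, and called under 0.05. Intervals are 95% intervals of the same fit. The number of arrays, 3 per group, limits the precision. The procedure was tested on simulated data.

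The members and the lists were chosen with earlier results of these data known. Named besides the members are the genes of each pathway list called in the mean over days and the 2 with the largest change among the rest, the called genes of each cell type list and 1 not called, and the 8 genes most like the members. Of the lymphocyte and liver lists all tested genes are named. Alternatives were the deposited scaling, a common median, pseudocounts of 2 and 32, no filter or the 60th percentile, 1 test per probe set, array weights, the accession run as a term or each run alone, the arrays without the 2 that stand apart, a replicate block and each array left out.

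Replicate numbers come from the titles. The 12 pairs of same-numbered arrays had correlations of deviations from -0.13 to 0.0857, 0 of them over 0.1, so the numbers do not pair the pups.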

Additional observations from a re-analysis of the deposited data

How the results depend on the processing

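Mcm6, Stmn1 and Bub1b kept their lower call in the mean over days under all alternatives that could test them except run 2 alone, and the Mcm6 change ran from -0.91 to -0.67 apart from it. The number of members called in the mean, 3 with all arrays, was 6 with array weights, 6 in run 1 alone, 0 in run 2 alone (adjusted p = 0.999 for each) and 7 without the 2 breast-fed arrays that stand apart, and 3 to 5 when single arrays were left out (5 without breast-fed day 4 replicate 1). On day 2 the count of 1 was 4 with array weights (2.54% of all genes lower), 2 in run 1 alone and 3 without the 2 arrays, and 1 to 2 with single arrays left out (2 without formula and hypoxia day 3 replicate 2). On day 3 the count of 1 was 0 with deposited intensities, no filter, the 60th percentile filter (which leaves out Tyms and Bub1b), array weights, the run as a term, run 1 alone, without the 2 arrays and with the replicate block, and 0 to 2 with single arrays left out; the adjusted p of Bub1b there ran up to 0.316. On day 4 the count of 0 was 1 with array weights (2.14%). For formula and hypoxia day 4 against day 1 the count of 1 was 0 with deposited intensities, a common median or the run as a term, and 0 to 1 with single arrays left out. With array weights it was 2, 1 higher and 1 lower, beside 723 of 3185 genes called (348 higher and 375 lower). Against day 2 the count of 1 was 3 with array weights, all higher, beside 786 of 3185 genes called (379 higher and 407 lower). It was 2 without the 2 arrays (7.19% of all genes higher) and 1 to 2 with single arrays left out (2 without replicate 3 of breast-fed day 3 or without replicate 1 of formula and hypoxia day 3). In run 1 alone the count for day 4 against day 1 stayed at 1, but the member called was not Mcm6 (adjusted p = 0.0570 by limma). The sign turned for Top2a (1.25) and Ccnb1 (0.67) in run 2 alone, and for Ccnd1 with a common median (-0.011), in run 2 alone (-0.42) and without breast-fed day 1 replicate 1, the change of Ccnd1 running from -0.015 to 0.15 with single arrays left out. With the replicate block the mean kept 3 members called and Bub1b on day 3 had adjusted p = 0.0584, and it changed no other call of a member. Run 2 alone sets 1 formula and hypoxia array against 3 breast-fed day 4 arrays, 1 of which stands apart: its Top2a (314) lay above the 9.56 of that array and below 399 and 369.5, and its Ccnb1 (184) above 37.4 and 177 and below 213. Causes of these changes of sign were not tested.

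Over all genes, the 364 calls of the mean were 550 with 1 test per probe set, 594 with array weights, 205 with the run as a term, 173 in run 1 alone and 0 in run 2 alone. The split of 149 higher and 215 lower was 91 and 244 with a common median. On day 3 the deposited scaling moved the median of all genes by 0.14 and a common median by -0.13, and the members' median of -0.42 on that day became -0.39 and -0.70. With single arrays left out, the fork list had 0 to 2 calls, the cyclin list 0 to 1 and the mitosis list 2 to 5, and the mitosis list had 1 with deposited intensities and 3 with the 60th percentile filter.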
